A study of Mus musculus with 12 samples.

Results

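The vascular endothelial growth factor (VEGF) family is described here by 9 genes: 5 receptor genes (Kdr, Flt1, Flt4, Nrp1 and Nrp2) and 4 ligand genes (Vegfa, Vegfb, Vegfc and Pgf). They are 9 of the 19938 genes measured, chosen by name for what they encode and with earlier results of these data known. Each had exactly 1 probe set that the array's gene table assigns to that gene alone. The values are log2 array signals, so a difference of 1 is a 2-fold change. There were 12 arrays in 4 groups of 3. The ESC group was the established mouse embryonic stem cell line V6.5, a single line, grown in 15% fetal bovine serum with leukemia inhibitory factor (LIF) at 1000 IU/ml. The null_EB group held embryoid bodies, free-floating cell aggregates, of lung endothelial cells that lack CD47. Per the labels, these cells had been passaged for 6 months before they were put into basal endothelial medium without serum, and the bodies were seen after 24 to 36 h. The null_EC group held CD47 null lung endothelial cells of C57Bl/6 mice, and the WT_EC group wild-type lung endothelial cells of the same strain, both in the endothelial growth medium EGM2. CD47 is a cell surface receptor for thrombospondin-1, and the null_EB and null_EC groups share its deletion. The labels do not say whether the 3 samples of a group came from separate animals or cultures, so the p-values measure only the spread between these samples, which may be technical.

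VEGF-A, the main driver of blood vessel growth, binds the tyrosine kinase receptors VEGFR1, encoded by Flt1, and VEGFR2, encoded by Kdr. VEGFR2 carries most of its signal to endothelial proliferation, migration and permeability, whereas VEGFR1 binds the ligand tightly, signals weakly and also exists as a soluble form that traps it. VEGF-C acts on lymphatic vessels through VEGFR3, encoded by Flt4, and the neuropilins, encoded by Nrp1 and Nrp2, hold ligand beside these receptors and also bind class 3 semaphorins. CD47 has been found in a complex with VEGFR2 in endothelial cells, where thrombospondin-1 acting through CD47 blocks VEGFR2 phosphorylation. EGM2 is as a rule supplied with VEGF and other growth factors and basal medium is not, but the labels do not list the supplements, and medium, serum, growth form and time in culture cannot be told apart from the groups.

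The 250 bases before an annotated transcript start are shown for Kdr, Flt1, Vegfb and Vegfc, the 4 genes with the lowest p between null_EC and WT_EC. They were read from RefSeq's mouse promoters (build GRCm38.p6), in which all 9 genes were found with 11 start sites in all, since Vegfa and Pgf have several. Capitals mark the GC box GGGCGG, the TATA box TATAAA and the cyclic AMP response element TGACGTCA on either strand, and no marked motifs share a base in these 4 windows. For Kdr and Flt1 the window lies inside the gene's listed span, which reaches further upstream, and for Vegfb and Vegfc it adjoins that span.
Kdr, chr5:75978456-75978705, minus strand: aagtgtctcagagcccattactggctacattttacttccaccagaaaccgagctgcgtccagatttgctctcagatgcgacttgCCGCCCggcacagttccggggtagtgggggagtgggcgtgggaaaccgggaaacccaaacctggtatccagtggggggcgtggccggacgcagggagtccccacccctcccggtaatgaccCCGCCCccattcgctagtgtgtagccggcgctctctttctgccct
Flt1, chr5:147726012-147726261, minus strand: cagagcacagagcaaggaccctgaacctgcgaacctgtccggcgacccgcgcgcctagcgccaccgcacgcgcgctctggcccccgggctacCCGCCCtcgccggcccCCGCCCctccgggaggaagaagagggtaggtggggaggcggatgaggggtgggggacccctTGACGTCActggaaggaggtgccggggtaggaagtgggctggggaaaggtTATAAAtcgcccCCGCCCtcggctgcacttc
Vegfb, chr19:6987652-6987901, minus strand: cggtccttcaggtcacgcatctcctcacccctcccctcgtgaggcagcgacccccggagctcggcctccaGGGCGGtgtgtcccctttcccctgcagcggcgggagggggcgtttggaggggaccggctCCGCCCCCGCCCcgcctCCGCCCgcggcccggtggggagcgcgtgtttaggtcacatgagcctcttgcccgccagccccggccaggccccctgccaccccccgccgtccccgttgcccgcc
Vegfc, chr8:54077282-54077531, plus strand: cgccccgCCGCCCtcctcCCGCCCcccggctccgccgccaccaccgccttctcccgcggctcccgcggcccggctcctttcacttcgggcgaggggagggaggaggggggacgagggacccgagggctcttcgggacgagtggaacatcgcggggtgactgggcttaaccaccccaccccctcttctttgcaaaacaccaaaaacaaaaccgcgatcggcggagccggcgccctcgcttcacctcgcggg
All 4 windows were rich in G and C, with 61.6% in Kdr, 70.4% in Flt1, 76.4% in Vegfb and 71.6% in Vegfc, against a median of 52.4% over 32851 mouse promoters of the same length. The GC box stood in 10 of the 11 windows of the 9 genes and in 32.7% of all promoters. Only the Flt1 window held the TATA box, found in 12.4% of all promoters, and only it held the cyclic AMP response element, found in 1.55%. The short ETS core GGAA stood in 9 of the 11 windows and in 93.4% of all promoters, so that it separates these genes little from others. The hypoxia response core ACGTG stood in 1 of the 11, at a second Vegfa start site, and in 16.6% of all promoters. The GATA core AGATAA stood in 1 of the 11, at the other Vegfa start, and in 9.99% of all promoters. The palindromic E-box CACGTG, which contains ACGTG, stood in 0 of the 11 and in 6.02% of all. These matches describe letters only, and no binding was measured.

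The arrays had near-equal medians, 7.66 to 7.75, but the WT_EC arrays differed far more from each other than those of the other groups. The correlation between arrays of a group was 0.954 to 0.968 in WT_EC and 0.994 to 0.997 in the other 3 groups, and a typical gene had an SD (median over genes) of 0.0847 in ESC, 0.077 in null_EB, 0.0652 in null_EC and 0.213 in WT_EC. The tests share 1 error over the 4 groups. For such a gene that error is too small in comparisons with WT_EC and too large in the others. Few blood endothelial markers were above the median of all values on the CD47 null arrays and on WT_EC array 2. Of 15 blood endothelial markers, the number above 8.01, the median of all values, was 7, 6 and 6 on the ESC arrays, 1 on each null_EB array, 2 on each null_EC array, and 7, 2 and 7 on WT_EC arrays 1, 2 and 3. The ESC arrays thus held as many as WT_EC arrays 1 and 3, or 1 fewer. The junction protein gene Cdh5 stood at 7.02, 6.96 and 6.94 in ESC, 7.27, 7.11 and 7.09 in null_EC and 9.10, 6.85 and 9.52 in WT_EC. The adhesion molecule gene Pecam1 stood at 8.87, 8.87 and 8.84 in ESC, 6.57, 6.60 and 6.61 in null_EC and 6.80, 6.46 and 7.56 in WT_EC. In contrast, all 7 mesothelial markers were above 8.01 on every null_EC array, and 6 or 7 on the WT_EC arrays. Their summed log2 signal was 52.17 to 52.86 in ESC, 73.86 to 75.22 in null_EB, 81.27 to 81.56 in null_EC and 70.18 to 79.07 in WT_EC. Fibroblast and mural markers were high in every group, with 8 of 12 above 8.01 on every null_EC and null_EB array, 8 or 9 on the ESC arrays and 9 or 10 on the WT_EC arrays. Their median was 10.07 to 10.19 in ESC, 10.25 to 10.58 in null_EB, 10.58 to 11.23 in null_EC and 11.01 to 11.89 in WT_EC. WT_EC array 3 also carried the highest leukocyte and lymphatic signal, with a leukocyte marker median of 9.32, against 7.76 and 6.49 on WT_EC arrays 1 and 2. Cd47 itself was at 11.23, 10.96 and 11.33 in ESC, 10.99, 10.89 and 10.93 in null_EB, 10.98, 11.11 and 11.02 in null_EC and 12.59, 11.29 and 12.48 in WT_EC, so that WT_EC array 2 and the ESC arrays lay near the null arrays. Whether the Cd47 probes cover the deleted part is not given in the sources used here. The part of these markers in the results below was not tested. In such bulk samples fewer cells of a type and less RNA per cell cannot be told apart.

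**Figure D1:**
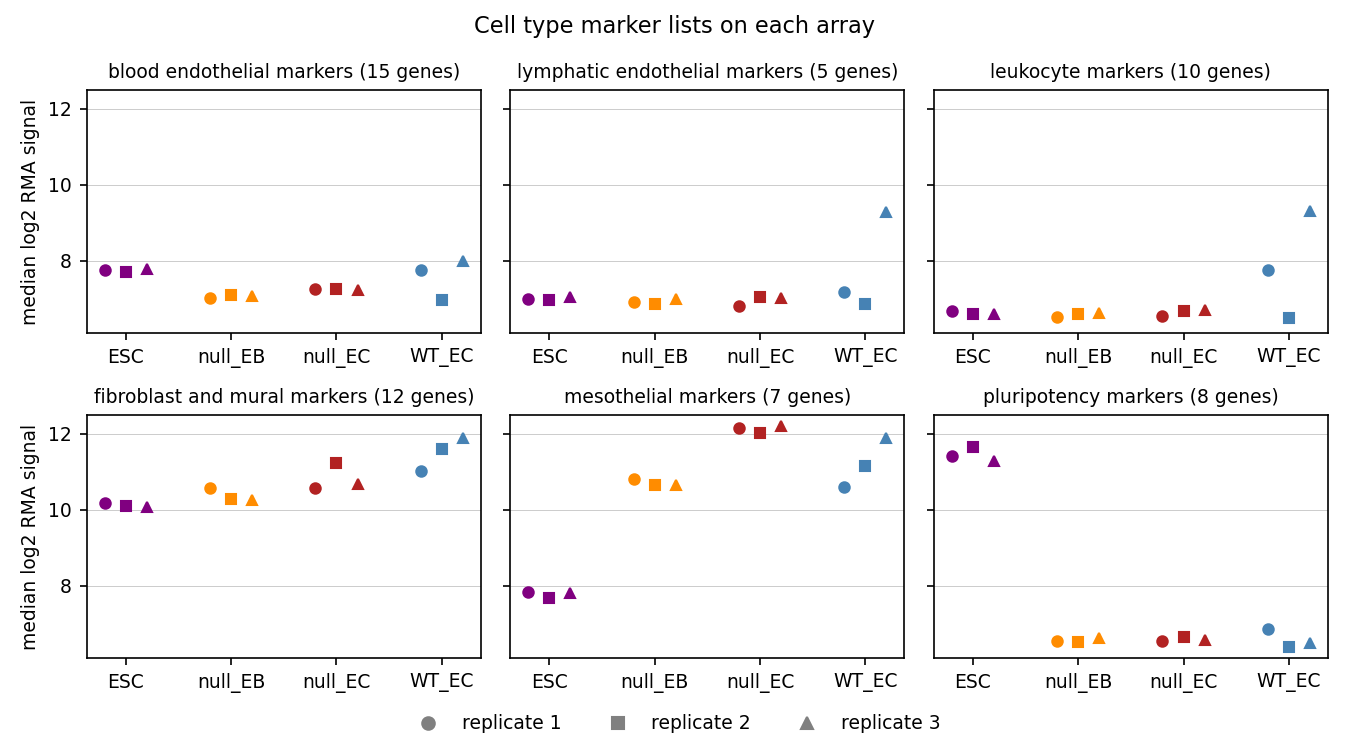
Median log2 RMA signal of 6 cell type marker lists on each of the 12 arrays, by group from ESC through null_EB and null_EC to WT_EC, 1 point per array with the marker shape giving the replicate number. WT_EC array 3 stands apart in the lymphatic and leukocyte lists, at 9.29 and 9.32, and the mesothelial median is highest in null_EC, at 12.03 to 12.20.

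Among the receptors, Kdr differed most between the groups. It stood at 6.98, 6.84 and 6.91 in ESC, 7.35, 7.26 and 7.40 in null_EB, 10.83, 10.74 and 10.52 in null_EC and 8.51, 8.61 and 9.35 in WT_EC. No null_EC array overlapped any array of another group, and the ESC and null_EB arrays lay below the median of all values. The group means were 6.91 ± 0.073 in ESC, 7.34 ± 0.072 in null_EB, 10.70 ± 0.16 in null_EC and 8.82 ± 0.46 in WT_EC (SD, n = 3 each). Kdr was thus 1.88 ± 0.18 log2 units (SE), or 3.67-fold, higher in null_EC than in WT_EC (limma adjusted p = 0.000108). In null_EB it fell by 3.36 ± 0.18, or 10.3-fold, relative to null_EC (limma adjusted p = 8.04e-06), and it was 2.80-fold lower in null_EB than in WT_EC (limma adjusted p = 0.000454). The same gene that was highest in null_EC was therefore below its WT_EC level in the embryoid bodies of the same genotype. ESC was 13.8-fold below null_EC (limma adjusted p = 2.95e-08) and 3.77-fold below WT_EC (limma adjusted p = 7.64e-06). The lowest neighbours in the order, ESC and null_EB, differed by 0.43 with limma adjusted p = 0.0804, though their arrays did not overlap. The mesothelial marker sum, like Kdr, was highest in null_EC and lowest in ESC, whereas the sums of null_EB and WT_EC overlapped and their Kdr values did not.

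Flt1 ran the other way from Kdr between null_EC and WT_EC, though both genes were lower in null_EB than in WT_EC. It stood at 9.18, 9.11 and 9.23 in ESC, 9.04, 8.97 and 9.08 in null_EB, 8.30, 8.64 and 8.43 in null_EC and 10.05, 9.42 and 10.17 in WT_EC. The lowest WT_EC array was above every array of the other groups, and the highest null_EC array was below every other array. Flt1 fell by 1.42 ± 0.17, or 2.68-fold, in null_EC relative to WT_EC (limma adjusted p = 0.000313), and was 1.80-fold lower in null_EB than in WT_EC (limma adjusted p = 0.00543). Fitted on the arrays of null_EB and WT_EC alone, the call between them was lost (limma adjusted p = 0.0768). In ESC it was 1.64-fold higher than in null_EC (limma adjusted p = 0.00423) and 1.63-fold lower than in WT_EC (limma adjusted p = 0.00468). The order from high to low was WT_EC, ESC, null_EB and null_EC, in which ESC and null_EB differed by 0.14 (limma adjusted p = 0.52) and null_EB and null_EC by 0.58 (limma adjusted p = 0.077). The array gives 1 value for the gene and does not separate the soluble from the membrane form.

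Since levels of different probe sets cannot be set against each other, only the shift of the Kdr minus Flt1 difference between groups is read here. This difference was -2.20, -2.27 and -2.32 in ESC, -1.69, -1.71 and -1.68 in null_EB, 2.53, 2.10 and 2.09 in null_EC and -1.54, -0.81 and -0.82 in WT_EC. It separated null_EC from all other groups with no overlap, while null_EB lay below all 3 WT_EC arrays.

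**Figure D2:**
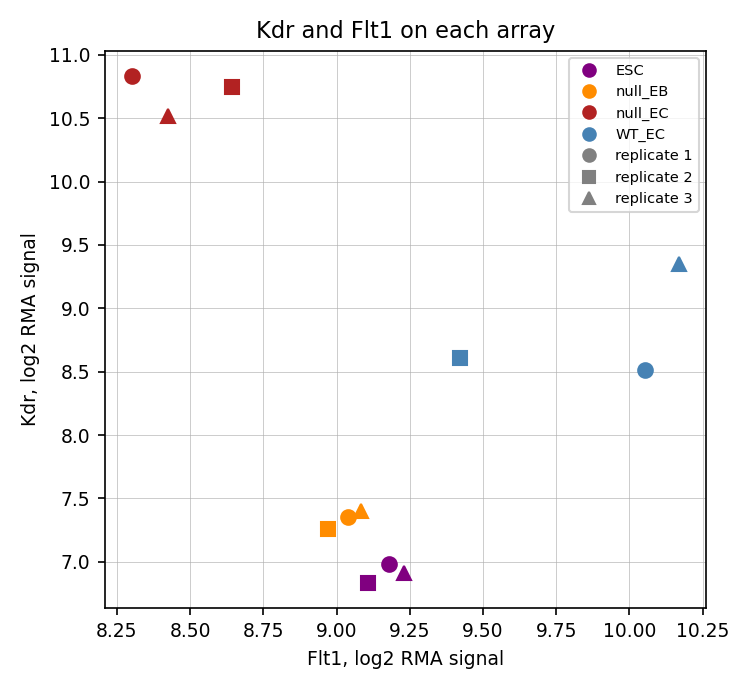
Log2 RMA signal of Kdr (vertical axis) against that of Flt1 (horizontal axis), 1 point per array, coloured by group and shaped by replicate number. The null_EC arrays lie at high Kdr and low Flt1, the WT_EC arrays at high Flt1 and middling Kdr, and the null_EB and ESC arrays at low Kdr, and neither axis starts at 0.

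Flt4, the lymphatic receptor gene, had low signal on most arrays. It stood at 8.14, 8.09 and 7.91 in ESC, 6.96, 6.87 and 6.91 in null_EB, 7.10, 7.04 and 7.05 in null_EC and 7.37, 6.86 and 8.27 in WT_EC. ESC was 1.97-fold above null_EC (limma adjusted p = 0.00975) and 2.20-fold above null_EB (limma adjusted p = 0.00437), with no overlap. The WT_EC arrays spanned the range of all the others, and no comparison with WT_EC passed (null_EC minus WT_EC -0.43, limma adjusted p = 0.339). Which WT_EC array is left out decides that value, which was -0.76 (limma adjusted p = 0.0171) without WT_EC array 2 and -0.05 (limma adjusted p = 0.858) without WT_EC array 3, the array highest in lymphatic markers. For the other groups it was likewise -0.91 (limma adjusted p = 0.00558) for null_EB minus WT_EC without WT_EC array 2, and 0.93 (limma adjusted p = 0.000206) for ESC minus WT_EC without WT_EC array 3. From high to low the order of means was ESC at 8.05, WT_EC at 7.50, null_EC at 7.07 and null_EB at 6.91, and no neighbours in it differed by the test.

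**Figure D3:**
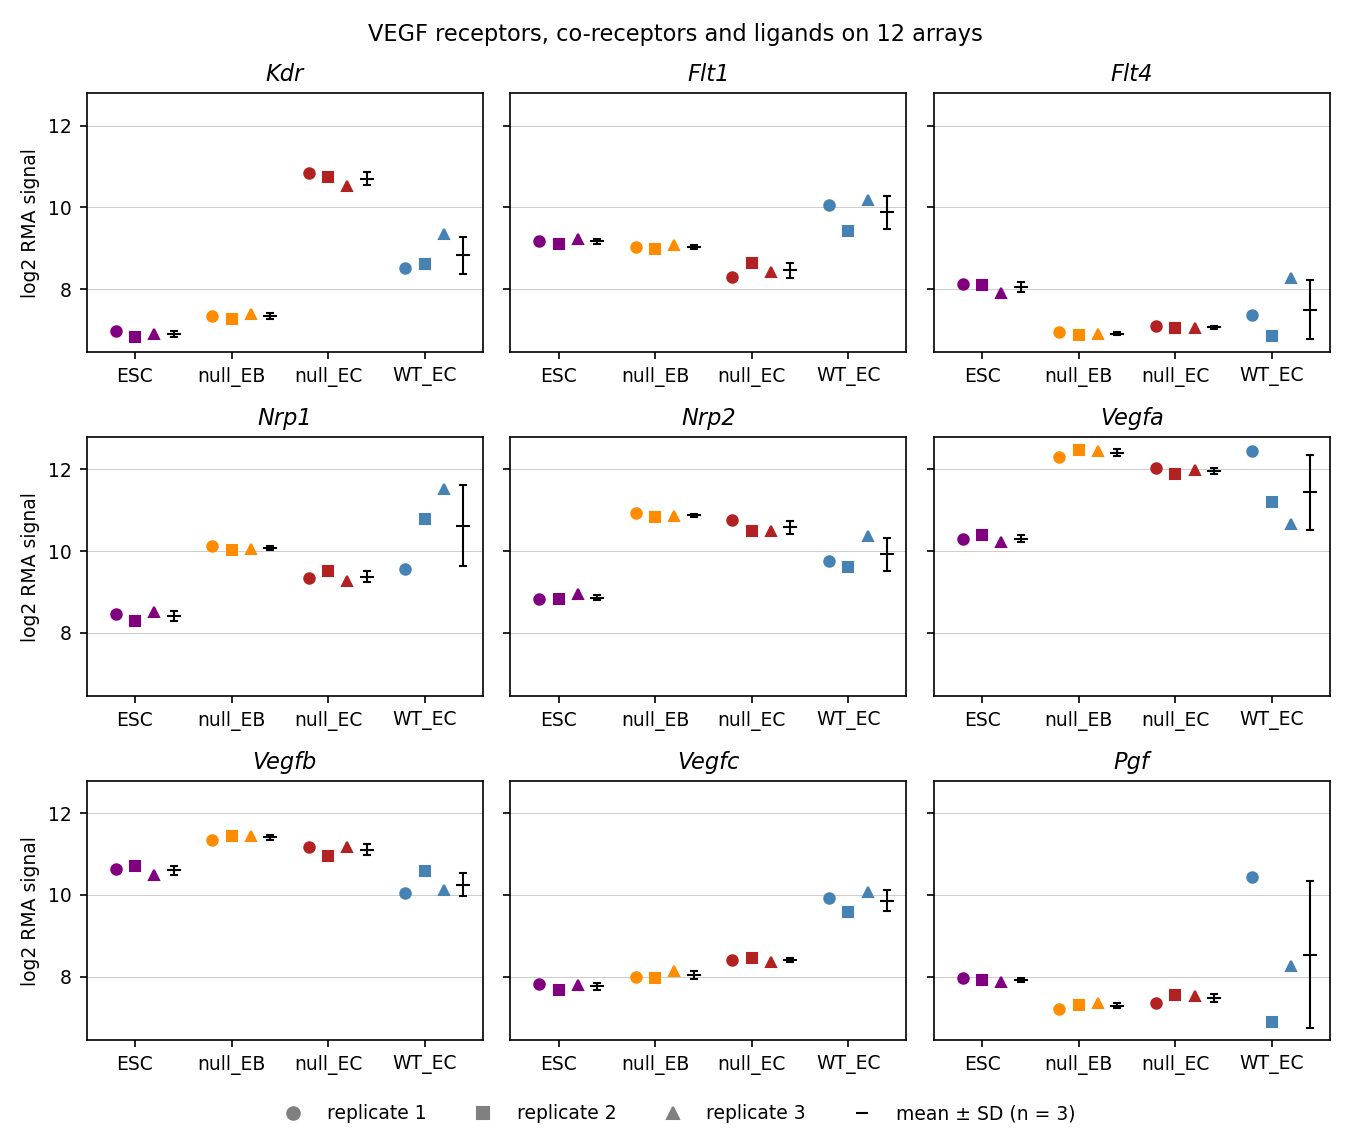
Log2 RMA signal of the 9 VEGF genes on each of the 12 arrays, 1 panel per gene, with groups from ESC through null_EB and null_EC to WT_EC, points for arrays and a bar for the mean with its SD (n = 3). Kdr peaks in null_EC, Flt1 and Vegfc in WT_EC, and the WT_EC points are the widest apart in each of the 9 panels.

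Of the co-receptors, Nrp1, which pairs with VEGFR2 and binds semaphorin 3A, was lowest in ESC. It stood at 8.45, 8.29 and 8.52 in ESC, 10.12, 10.04 and 10.05 in null_EB, 9.34, 9.53 and 9.26 in null_EC and 9.56, 10.77 and 11.52 in WT_EC. All ESC arrays lay below every other array, and the WT_EC arrays spread from 9.56 to 11.52. In ESC, Nrp1 was 4.58-fold lower than in WT_EC (limma adjusted p = 0.000419), 3.14-fold lower than in null_EB (limma adjusted p = 0.00295) and 1.94-fold lower than in null_EC (limma adjusted p = 0.0471). Relative to WT_EC it was 2.36-fold lower in null_EC (log2 -1.24 ± 0.36, limma adjusted p = 0.0442). That call was lost when any 1 of the 3 null_EC arrays was left out (limma adjusted p = 0.0926 to 0.137), without WT_EC array 2 (0.0592) and without WT_EC array 3, where the log2 difference was -0.79 (0.0744). The ESC against null_EC call was lost when any 1 array of either group was left out (limma adjusted p = 0.0821 to 0.124). Between null_EB and WT_EC the difference was -0.55 (limma adjusted p = 0.347), and without WT_EC array 1 it was -1.08 (limma adjusted p = 0.00175). From high to low the order of means was WT_EC, null_EB, null_EC and ESC, and of its neighbours only null_EC and ESC differed by the test.

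Nrp2, which pairs with VEGFR3 and binds semaphorin 3F, was highest in the CD47 null groups. It stood at 8.83, 8.82 and 8.94 in ESC, 10.92, 10.84 and 10.85 in null_EB, 10.77, 10.49 and 10.49 in null_EC and 9.77, 9.62 and 10.38 in WT_EC. The ESC arrays were lowest and those of null_EB highest, with no overlap between any pair of groups. Nrp2 was 1.58-fold higher in null_EC than in WT_EC (log2 0.66 ± 0.17, limma adjusted p = 0.0235) and 1.93-fold higher in null_EB than in WT_EC (limma adjusted p = 0.00284). Fitted on the arrays of null_EB and WT_EC alone, the call between them was lost (limma adjusted p = 0.0572). The null_EC against WT_EC call was lost when any 1 null_EC array was left out (limma adjusted p = 0.0531 to 0.109) and without WT_EC array 1 (0.0508). ESC was 4.02-fold below null_EB (limma adjusted p = 2.22e-06), 3.29-fold below null_EC (limma adjusted p = 6.73e-06) and 2.08-fold below WT_EC (limma adjusted p = 0.000309). From high to low the order was null_EB, null_EC, WT_EC and ESC, and null_EB and null_EC differed by 0.29 (limma adjusted p = 0.442).

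Among the ligands, Vegfa was lowest in ESC, and no difference among the other 3 groups passed. It stood at 10.31, 10.40 and 10.21 in ESC, 12.31, 12.47 and 12.44 in null_EB, 12.03, 11.87 and 11.99 in null_EC and 12.45, 11.20 and 10.66 in WT_EC. The ESC arrays lay below all others, and the WT_EC arrays reached from near the ESC values into the null_EB range. In ESC, Vegfa was 4.29-fold lower than in null_EB (limma adjusted p = 0.000338), 3.15-fold lower than in null_EC (limma adjusted p = 0.00166) and 2.19-fold lower than in WT_EC (limma adjusted p = 0.0164). WT_EC array 1 sets much of the last value, which was -1.13 on the log2 scale with it and -0.62 (limma adjusted p = 0.00314) without it, and the call was lost without ESC array 3 (0.0512). The difference between null_EC and WT_EC, 0.52 (limma adjusted p = 0.365), was 1.03 (limma adjusted p = 0.000631) without WT_EC array 1 and 0.14 (limma adjusted p = 0.799) without WT_EC array 3. For null_EB minus WT_EC it was 0.97 (limma adjusted p = 0.0685) with all arrays and 1.48 (limma adjusted p = 6.06e-05) without WT_EC array 1. From high to low the order was null_EB, null_EC, WT_EC and ESC, and of its neighbours only WT_EC and ESC differed by the test. The splice forms of Vegfa, which differ in how they bind heparan sulphate, share this 1 value.

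Vegfb, a ligand of VEGFR1 that is not known as a strong driver of vessel growth, was higher in both CD47 null groups. It stood at 10.62, 10.70 and 10.48 in ESC, 11.34, 11.44 and 11.45 in null_EB, 11.18, 10.96 and 11.18 in null_EC and 10.05, 10.58 and 10.12 in WT_EC. Every null_EB and null_EC array exceeded every ESC and WT_EC array. Vegfb was 1.81-fold higher in null_EC than in WT_EC (log2 0.85 ± 0.13, limma adjusted p = 0.00172) and 2.23-fold higher in null_EB than in WT_EC (limma adjusted p = 0.000269). Fitted on the arrays of null_EC and WT_EC alone, the call between them was lost (limma adjusted p = 0.0553). ESC was 1.75-fold below null_EB (limma adjusted p = 0.000402) and 1.42-fold below null_EC (limma adjusted p = 0.00813). ESC and WT_EC overlapped, and the 1.27-fold difference between them (limma adjusted p = 0.0493) was lost without WT_EC array 1 (0.143), without WT_EC array 3 (0.131) or when any 1 ESC array was left out (0.0516 to 0.145). From high to low the order was null_EB, null_EC, ESC and WT_EC, and null_EB and null_EC differed by 0.30 (limma adjusted p = 0.258).

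Vegfc, the main ligand of VEGFR3, was the ligand whose signal set WT_EC most clearly apart. It stood at 7.82, 7.67 and 7.80 in ESC, 8.00, 7.97 and 8.14 in null_EB, 8.41, 8.46 and 8.36 in null_EC and 9.92, 9.58 and 10.08 in WT_EC. All 4 groups were separate, and every WT_EC array was more than 1 log2 unit above every other array. Vegfc fell by 1.45 ± 0.11, or 2.73-fold, in null_EC relative to WT_EC (limma adjusted p = 3.13e-05), and was 3.54-fold lower in null_EB than in WT_EC (limma adjusted p = 1.02e-05). ESC was 4.29-fold below WT_EC (limma adjusted p = 1.04e-07) and 1.57-fold below null_EC (limma adjusted p = 0.000681). From high to low the order was WT_EC, null_EC, null_EB and ESC, in which null_EB minus null_EC was -0.38 (limma adjusted p = 0.0944) and ESC minus null_EB was -0.27 (limma adjusted p = 0.0744). The related lymphatic ligand gene Vegfd stood at 9.07, 8.98 and 9.02 in ESC, 8.68, 8.51 and 8.60 in null_EB, 8.66, 8.91 and 8.66 in null_EC and 10.16, 11.44 and 13.02 in WT_EC. Its fall in null_EC relative to WT_EC was 6.94-fold (limma adjusted p = 0.00479), also with no overlap.

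Pgf, placental growth factor, another VEGFR1 ligand, passed no comparison. It stood at 7.97, 7.93 and 7.87 in ESC, 7.22, 7.31 and 7.35 in null_EB, 7.37, 7.55 and 7.53 in null_EC and 10.45, 6.89 and 8.26 in WT_EC. The 3 WT_EC arrays held both the highest and the lowest value of the gene. The null_EC minus WT_EC difference was -1.05 ± 0.64 (SE, limma adjusted p = 0.339), -1.87 (limma adjusted p = 0.0112) without WT_EC array 2 and -0.10 (limma adjusted p = 0.861) without WT_EC array 1. Without WT_EC array 2, null_EB minus WT_EC was -2.07 (limma adjusted p = 0.00558) and ESC minus WT_EC was -1.43 (limma adjusted p = 0.0206). The order of means was WT_EC at 8.53, ESC at 7.92, null_EC at 7.48 and null_EB at 7.29, and no neighbours in it differed by the test.

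The null_EC and WT_EC groups are labelled as differing in CD47, but 4 of 7 mesothelial markers were also higher in null_EC and 0 lower. Of 12 fibroblast and mural markers 3 were lower there and 0 higher. Cd47 on WT_EC array 2 lay near the null arrays, but so did the ESC arrays, which are not labelled CD47 null. Its signal alone thus does not mark the genotype. The differences are therefore given between these samples and not assigned to the deletion. Of the 9 genes, 6 passed in null_EC against WT_EC, at a limma adjusted p under 0.05 over all genes, while 13.1% of all genes did. Kdr, Nrp2 and Vegfb were higher, in a direction that 8.12% of all genes took, and Flt1, Nrp1 and Vegfc lower, in one that 5% took. The arrays of both groups were separate in 6 of the 9 and in 25.5% of all genes. The median size of the log2 difference, whatever its sign, was 1.05 over the 9 and 0.137 over all genes, and the median signed difference was -0.43 over the 9 and 0.03 over all. With any 1 null_EC array left out the count was 4, as Nrp1 and Nrp2 were lost, while 6.7% to 8.27% of all genes were called. The shared error is too small for the wide WT_EC spread. Fitted on the 6 arrays of these groups alone, 3 of the 9 passed (Kdr, Flt1 and Vegfc), with 2.95% of all genes called. The highest limma adjusted p over the alternatives run was 0.0177 for Kdr, 0.0275 for Flt1 and 0.00947 for Vegfc. Equal housekeeping gene medians would lower every log2 difference here by 0.24, and 10.5% of the called genes would then be higher, against 61.9% as deposited, so the split of all calls by direction rests on the scaling. Kdr, Flt1, Nrp1, Vegfb and Vegfc kept theirs and their calls under that scaling, and Nrp2 kept its sign but not its call (0.42, limma adjusted p = 0.197).

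The embryoid bodies and the CD47 null cells in EGM2 share the genotype and differ in growth form and medium. The labels also give 6 months of passage for null_EB and no passage time for null_EC. In null_EB against null_EC only Kdr passed, 1 of 9, while 5.4% of all genes did (2.9% higher, 2.5% lower). The arrays of both groups were separate in all 9 and in 41.1% of all genes. The wide WT_EC spread enters the shared error of this fit although WT_EC is not compared. With WT_EC left out of the fit, a choice made after seeing the data, 25.4% of all genes passed and 7 of the 9 did. Kdr and Vegfc were then lower (limma adjusted p = 6.92e-11 and 0.00111). Flt1 (0.000166), Nrp1 (3.04e-05), Nrp2 (0.0156), Vegfa (0.000466) and Vegfb (0.0123) were higher, by 0.29 to 0.69 log2 units. Flt4 (0.121) and Pgf (0.0536) did not pass in that fit either. Against WT_EC, null_EB differed in 5 of the 9, with 18.5% of all genes called. Nrp2 and Vegfb were higher (12.3% of all genes) and Kdr, Flt1 and Vegfc lower (6.19%), and 5 of the 9 had separate groups, against 28.3% of all genes. The same WT_EC arrays serve both CD47 null groups here, so these calls are not separate evidence.

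**Figure D4:**
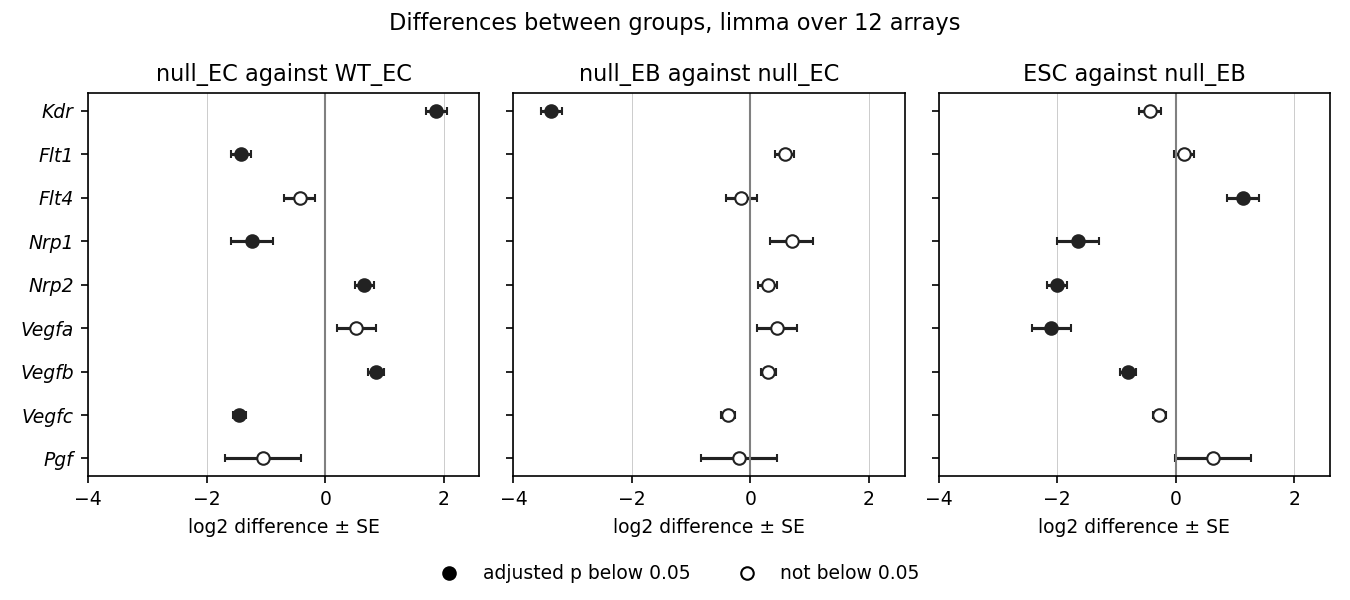
Log2 differences of the 9 VEGF genes (points) with standard errors (bars) in 3 panels (left, null_EC against WT_EC; middle, null_EB against null_EC; right, ESC minus null_EB), filled where the limma adjusted p is under 0.05. Kdr stands at 1.88 in the left panel and at -3.36 in the middle one, where every other point is open.

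ESC differed from each other group in many of the 9 genes, as it did in many genes overall. In ESC against null_EC 8 of 9 passed (2 higher, 6 lower), with 47.9% of all genes called (22.9% higher, 25.1% lower). In ESC against null_EB 5 of 9 passed (1 higher, 4 lower), with 44.8% of all genes called (21.8% higher, 23% lower), a share of members little above that background. In ESC against WT_EC 7 of 9 passed (1 higher, 6 lower), with 47.1% of all genes called (25.4% higher, 21.7% lower). Nrp1, Nrp2 and Vegfa were lower in ESC in all 3 comparisons. Fitted without WT_EC, 8 of 9 passed in ESC against null_EB, with 64.6% of all genes called, and Kdr (limma adjusted p = 0.000401) and Vegfc (0.00304) joined the lower genes and Pgf (1.81e-06) the higher one. Fitted without WT_EC, 9 of 9 passed in ESC against null_EC, with 66.8% of all genes called. Separate groups were found in 9 of 9 against null_EC (72.2% of all genes), 9 of 9 against null_EB (67.4%) and 6 of 9 against WT_EC (51.5%). The 3 comparisons share the ESC arrays.

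The other genes of the pathway were followed in lists, also chosen with earlier results of these data known. The shares of all genes beside them are thus no test of the lists. Of 34 measured genes that carry VEGF receptor signals inside the cell, 4 rose and 1 fell in null_EC against WT_EC, a called share of 14.7% beside 13.1% over all genes. Without WT_EC array 2 these were 9 and 5, with 27.3% of all genes called, and without WT_EC array 1 they were 6 and 3, with 17.3%. Pik3cb, a catalytic subunit of phosphoinositide 3-kinase, was 2.02-fold higher (limma adjusted p = 0.00194) and Mapkapk2, a kinase below p38, 1.42-fold higher (limma adjusted p = 0.026), whereas Pla2g4a, the cytosolic phospholipase A2 gene, was 1.47-fold lower (limma adjusted p = 0.00821). The list's median difference was -0.01, against 0.03 over all genes. Between null_EB and null_EC, Pik3cb was 2.09-fold lower (limma adjusted p = 0.00376), Pla2g4a 1.47-fold higher (limma adjusted p = 0.017) and Nras, a small GTPase, 1.28-fold higher (limma adjusted p = 0.0112), and no other of the 34 passed. These were 8.82% of the 34, beside 5.4% of all genes. In ESC against null_EB 7 rose and 16 fell, a called share of 67.6% beside 44.8% over all genes. Plcg2, a phospholipase C gene, was 8.44-fold higher and Prkca, a protein kinase C gene, 3.26-fold lower in ESC.

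Of 20 transcripts known to be induced by VEGF in endothelial cells, 0 rose and 7 fell in null_EC against WT_EC, a called share of 35% beside 13.1% over all genes (5% lower). The median difference was -0.73, against 0.03 over all genes. Without WT_EC array 1, 2 or 3 the number that fell was 8, 11 or 7, while 17.3%, 27.3% or 15.6% of all genes were called, and without WT_EC array 3 there was also 1 that rose. Egr2, an immediate early transcription factor gene, stood at 7.44, 7.59 and 7.39 in null_EC and at 9.80, 8.40 and 11.01 in WT_EC, a 4.80-fold fall (limma adjusted p = 0.00907). Adamts1, a secreted protease gene, stood at 9.53, 9.30 and 9.28 in null_EC and at 9.99, 11.18 and 11.91 in WT_EC, a 3.15-fold fall (limma adjusted p = 0.0108). For both genes every null_EC array lay below every WT_EC array. Vcam1, an adhesion molecule gene, was 2.30-fold higher in null_EB than in null_EC (limma adjusted p = 0.000684) and Nid2, a basement membrane gene, 6.66-fold lower. No other of the 20 passed there, a called share of 10% beside 5.4% over all genes. Without WT_EC in the fit 7 rose and 2 fell, with 25.4% of all genes called. Against null_EB, ESC had 2 of the 20 higher and 7 lower, a called share of 45% near the 44.8% over all genes. Nid2 was 3.66-fold higher and Vcam1 5.21-fold lower in ESC.

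The list of semaphorins and plexins, some of which share the neuropilins with VEGF, held 13 measured genes, including Gipc1, which is neither. In null_EC against WT_EC 3 rose and 2 fell, a called share of 38.5% beside 13.1% over all genes. Without WT_EC array 3 these were 5 and 2 (15.6% of all genes called), without array 1 they were 3 and 3 (17.3%), and without array 2 they were 3 and 2 (27.3%). Plxna4, a plexin that works with neuropilin 1, was 4.01-fold higher (limma adjusted p = 0.00727), Sema3c 3.18-fold higher and Sema3e, which signals through plexin D1, 3.46-fold lower. Of the 13, 4 rose and 2 fell in null_EB relative to null_EC, a called share of 46.2% beside 5.4% over all genes. Sema3e was then 2.37-fold higher (limma adjusted p = 0.0109), Plxna3 2.48-fold higher, Sema3c 2.70-fold lower and Sema3b 1.75-fold lower. ESC had 0 of the 13 higher and 10 lower than null_EB, a called share of 76.9% beside 44.8% over all genes. Plxna4 was 19.9-fold lower there and Sema3d 8.32-fold lower.

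Of 20 genes of oxygen sensing and hypoxia, a pathway that controls Vegfa in many tissues, 1 rose and 2 fell in null_EC against WT_EC, a called share of 15% near the 13.1% over all genes. Adm, the adrenomedullin gene, stood at 8.34, 8.44 and 8.40 in null_EC and at 12.18, 10.30 and 12.71 in WT_EC, a 10.1-fold fall, and Hif3a fell 2.17-fold. Hif1an, the asparagine hydroxylase that inhibits HIF-1, rose 1.48-fold (limma adjusted p = 0.0104). Without WT_EC array 1, the array highest in Vegfa, the count that rose was 10 of 20, with 2 that fell and 17.3% of all genes called. Without WT_EC array 2, 3 rose and 3 fell, with 27.3% of all genes called. Limma called 0 of the 20 in null_EB against null_EC, beside 5.4% of all genes, with 6 at an unadjusted p under 0.05. Without WT_EC in the fit 2 rose and 13 fell, with 25.4% of all genes called. ESC against null_EB had 4 higher and 5 lower, a called share of 45% near the 44.8% over all genes. Adm was 4.07-fold higher and Ndrg1 3.43-fold lower in ESC.

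Among 16 genes that release, bind or process VEGF ligands, 0 rose and 2 fell in null_EC against WT_EC, a called share of 12.5%, not above the 13.1% over all genes. Without WT_EC array 2, 4 fell (27.3% of all genes called), and without WT_EC array 1, 1 rose and 2 fell (17.3%). The 2 were Thbs1, which encodes the CD47 ligand thrombospondin-1 (2.20-fold, limma adjusted p = 0.00203), and Ccn2, whose product binds VEGF-A (2.98-fold, limma adjusted p = 0.00329). Mmp2, a matrix protease gene, was 2.74-fold lower in null_EB than in null_EC and Thbs2 3.71-fold lower, whereas Vash2, a vasohibin gene, was 1.50-fold higher. They were 18.75% of the 16, beside 5.4% of all genes. Thbs2 was in turn 6.94-fold higher in ESC than in null_EB. There 4 of the list were higher and 5 lower, a called share of 56.25% beside 44.8% over all genes. Of 17 related growth factors and receptor kinases, 1 rose and 3 fell in null_EC against WT_EC, a called share of 23.5%. Angpt4, an angiopoietin, was 2.77-fold higher and Csf1, the macrophage growth factor, 2.66-fold lower. Without WT_EC array 1 or 2 these counts became 4 higher and 6 lower, or 2 higher and 5 lower, with 17.3% or 27.3% of all genes called. Angpt4 was 2.55-fold lower in null_EB than in null_EC (limma adjusted p = 0.000155), as was Pdgfb, by 1.38-fold, a called share of 11.8% beside 5.4% over all genes. In ESC against null_EB 4 of the 17 were higher and 2 lower, a called share of 35.3%, below the 44.8% over all genes. The stem cell factor receptor gene Kit was 7.65-fold higher in ESC than in null_EB, and Pdgfc 5.81-fold lower. Of 23 endothelial transcription factors, 2 rose and 2 fell in null_EC against WT_EC, a called share of 17.4%. Without WT_EC array 2, 2 rose and 6 fell, with 27.3% of all genes called. Hey1, a Notch target, was 1.45-fold higher and Mef2c 2.38-fold lower. Klf4 in null_EB relative to null_EC was 1.90-fold higher and Hey1 1.43-fold lower, and no other of the 23 passed. That was a called share of 8.7% beside 5.4% over all genes. Against null_EB, ESC had 6 of the 23 higher and 7 lower, a called share of 56.5% beside 44.8% over all genes. Prox1 was 2.27-fold higher and Ets2 4.30-fold lower in ESC. With WT_EC out of the fit, the counts in null_EB against null_EC were 5 higher and 8 lower for signal transduction, 5 and 5 for semaphorins and plexins, 2 and 6 for ligand release and binding, 2 and 7 for related growth factors and 2 and 4 for the transcription factors, with 25.4% of all genes called.

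The group means of 5 members spanned at least 2 log2 units, and for each of them the 3 genes with the most similar pattern among 4473 are given by Pearson's r over the 12 arrays, which fall into 4 groups and are not independent points. Kdr was most like Dock8 (r = 0.974), Neto1 (0.970) and Thbd (0.967). Dock8, a guanine nucleotide exchange factor, averaged 6.79 in ESC, 7.74 in null_EB, 10.51 in null_EC and 8.86 in WT_EC, the same order of groups as Kdr. Nrp1 was most like Egr1 (0.987), Adamts1 (0.979) and Abca6 (0.971), of which Egr1 and Adamts1 stand among the VEGF-induced transcripts above. Nrp1, Egr1 and Adamts1 each rose over WT_EC arrays 1, 2 and 3, from 9.56 to 11.52, 9.93 to 11.73 and 9.99 to 11.91. Egr2 of the same list did not keep that order, at 9.80, 8.40 and 11.01. Of the fibroblast and mural markers, Col3a1 kept it, from 10.27 to 11.73, and Tagln did not, at 12.41, 9.29 and 11.09. A link of Nrp1 to VEGF was not tested. Nrp2 was most like Synj2 (0.995), Sfxn3 (0.986) and Lyst (0.982). Vegfa was most like Tnfsf9 (0.990), Sqstm1 (0.966) and Dusp4 (0.966). Vegfc was most like Tent5a (0.983), Cfb (0.976) and Ctsc (0.975).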

How the data were processed

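RNA of 12 mouse samples was measured on 12 whole-transcript arrays, 3 per group. The authors deposited 1 log2 signal for each probe set and array, made with Affymetrix Expression Console 1.2.1 and RMA, per the submitters' processing notes, which corrects background and quantile-normalizes all arrays. A human array is named in the labels' protocols, but the identifiers of the probe sets are those of the mouse table used here. Arrays have no depth, and the number of arrays limits the precision. The genome build of the array annotation is not given in the sources used here.

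Of 35556 probe sets, 21789 had 1 gene, 1621 several and 12146 none. Only the first kind was kept, with the brightest probe set per gene by mean over 12 arrays, which left 19938 genes. Limma 3.58.1 under R 4.3.3 fitted 1 mean per group to all 12 arrays, with moderated variances, for 6 comparisons, with Benjamini-Hochberg adjustment over all genes of each comparison and a threshold of 0.05. The procedure was tested on simulated data with the same spread in every group, so that test does not cover the wider spread of WT_EC. Groups came from the sample titles. Genes named are the 9 members, up to 2 called genes with the largest increase and decrease per other list in 3 comparisons, and the 3 nearest genes in pattern of members spanning at least 2 log2 units. Some marker and other list genes are named outside this rule. The members and lists were chosen with earlier results of these data known. Replicate numbers were not shown to pair samples (correlation of same-numbered deviations -0.256 to 0.225 over 18 pairs). The alternatives were the 6 arrays of a comparison alone, array weights, weights per group, a fit without WT_EC, a 2-fold minimum, every probe set by itself, a filter on dim genes, a shift to equal housekeeping medians, a replicate block, a trended robust prior and leaving out each array.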

Additional observations from a re-analysis of the deposited data

How the results depend on the processing

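Counts are of the 9 VEGF genes that passed. With all arrays the counts were 7 in ESC against WT_EC, 5 in ESC against null_EB, 8 in ESC against null_EC, 5 in null_EB against WT_EC, 1 in null_EB against null_EC and 6 in null_EC against WT_EC, with 47.1%, 44.8%, 47.9%, 18.5%, 5.4% and 13.1% of all genes called. Fitted on the 6 arrays of a comparison alone, they were 8 in ESC against null_EB (61.7% of all genes called), 7 in null_EB against null_EC (27.4%), 3 in null_EB against WT_EC (4.36%) and 3 in null_EC against WT_EC (2.95%). That fit lost the calls of Flt1 and Nrp2 in null_EB against WT_EC and of Nrp1, Nrp2 and Vegfb in null_EC against WT_EC. In ESC against WT_EC it lost those of Vegfa and Vegfb, with 31.3% of all genes called. With array weights they were 9 in ESC against null_EB (74.6%), 7 in null_EB against null_EC (40.1%) and 9 in null_EB against WT_EC (21.8%). A fit without WT_EC and a fit with 1 weight per group, both chosen after seeing the data, each gave 8 in ESC against null_EB (64.6% and 62.1%) and 7 in null_EB against null_EC (25.4% and 26.9%). A 2-fold minimum left 5 in ESC against WT_EC, 4 in ESC against null_EB, 3 in ESC against null_EC, 3 in null_EB against WT_EC, 1 in null_EB against null_EC and 4 in null_EC against WT_EC. The share of all genes at that minimum was not worked out, so these counts cannot be set against it. Leaving out each array gave 5 to 8 in ESC against WT_EC (40% to 56.2% of all genes called), 5 in ESC against null_EB (37.3% to 41.1%) and 7 in ESC against null_EC (40.1% to 41.4%). It gave 5 to 7 in null_EB against WT_EC (10.2% to 32.6%), 1 in null_EB against null_EC (1.96% to 3.39%) and 4 to 7 in null_EC against WT_EC (6.7% to 27.3%). With the replicate number as a block, in which pairing is not established, the counts were 6, 5, 7, 5, 1 and 5 in the same order as above. The shares of all genes called were then 44.9%, 42.8%, 45.9%, 16.3%, 3.83% and 11.2%. Of 32 calls on single genes, 24 held under every alternative run other than the 2-fold minimum, no call turned sign, and of the 22 results not called, 20 were called or turned sign under some alternative. Without WT_EC arrays, or with them given little weight, the error of the other groups falls by construction. Other causes were not tested. WT_EC has 3 arrays that differ widely, which limits what can be said of Flt4, Nrp1, Vegfa and Pgf there. Equal housekeeping medians shift every log2 difference by 0.14 in null_EB against null_EC, -0.10 in null_EB against WT_EC, -0.30 in ESC against WT_EC and -0.20 in ESC against null_EB. The share of called genes that are higher was then 81.4%, 38.2%, 22.4% and 27.6%, against 53.7%, 66.6%, 53.9% and 48.6% as deposited. Uncalled Flt1 in ESC against null_EB was -0.06 under that shift, and uncalled Pgf in ESC against WT_EC 0.35 without WT_EC array 1.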
